A study of Glycine max with 48 samples.

Results

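The stigma-enriched genes of the soybean flower were chosen from plants grown without stress, as the genes whose RNA stood higher in the stigma than in every other flower organ measured. A gene belonged to the group if its mean in control libraries was at least 5 FPKM (a measure of RNA level, the fragments sequenced from a gene divided by its length in kilobases and by the size of the library) in the stigma and if that mean plus 1 was at least 4 times the mean plus 1 of the ovary, of the sepal and of the anther. Of 57147 identifiers, 96 met this rule, and they are called members here. The membership is therefore a description of the control libraries and not a result.

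RNA was sequenced from the sepal, anther, ovary and stigma of soybean (Glycine max, cultivar Magellan, a nodulating legume inoculated with Bradyrhizobium japonicum) under 4 treatments with 3 libraries in each organ, 48 in all. Combined stress meant days of 38 °C and nights of 28 °C with 30% of the water that plants could transpire. Heat meant the same temperatures with 100% of that water, water deficit meant days of 28 °C and nights of 24 °C with 30%, and control plants had the milder temperatures with 100%. Each library pooled organs of 10 to 15 flowers from 8 to 10 plants, and the treatments began when the first flower opened. All plants had 12 h of light a day, and 16 to 18 days of growth are given for every library. The 4 growth chambers stood side by side, and which held which treatment is not stated in the labels, so effects of chamber and treatment cannot be told apart. The point at which the stigma was severed from the style is not stated in the labels.

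The stigma is the receptive tip of the pistil. It captures pollen grains and lets them take up water and germinate, and the pollen tubes then grow through the style to the ovules in the ovary. Soybean flowers mostly pollinate themselves, and heat or drought at flowering is known to lower the number of pods that set. The deposited tables hold identifiers without names, and 0 of the 57147 identifiers matched the reference gene table, so the members are given by identifier, with no role. The GLYMA_ identifiers carry the chromosome number and the order along it, which is used for neighbours below.

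In control stigmas the members spanned 5.04 to 1008 FPKM, with a median of 20.8 FPKM. The organ levels come from tables that the authors deposited separately for each organ, so ratios between organs are descriptions without a test. The ratio of the stigma to the next organ had a median of 6.40. It ran between 4.004 and 60.2. The next organ was counted as the ovary, the other part of the pistil sampled, for 69 members, the sepal for 13 and the anther for 14. The 69 include 20 members with no RNA listed in any control library of the ovary, sepal or anther. Such ties were counted under the ovary, so these 20 members have no true next organ. Just inside the limit lay GLYMA_09G032200 with a ratio of 4.004 and GLYMA_17G110400 with 4.01, and just outside it lay GLYMA_08G293800 with 3.94 and GLYMA_17G202100 with 3.89. The number of members is small beside the genes enriched by the same rule in the sepal (1116) and the anther (2071) and near that in the ovary (75). It depended on the scaling and the libraries. After median-of-ratios rescaling of the control libraries, 73 genes met the rule, all of them members. On control replicates 1 and 2 alone 112 genes met it, of which 86 were members.

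**Figure D1:**
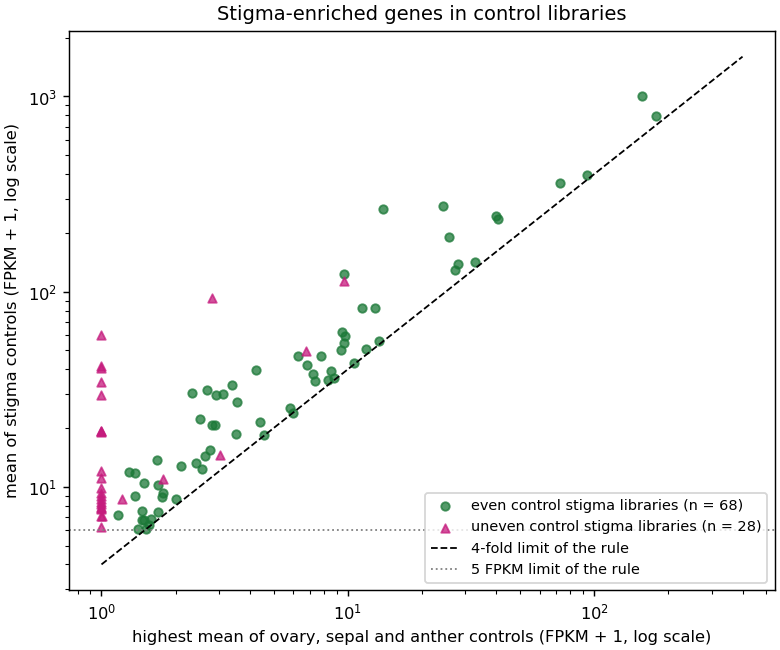
Mean FPKM + 1 of each of the 96 members in control stigmas (vertical, log scale) against the highest control mean + 1 of the ovary, sepal and anther (horizontal, log scale), with green circles for 68 members with even control libraries and magenta triangles for 28 with uneven ones. Most uneven members stand at the left edge, where every other organ is at or near 0, while the even members follow the 4-fold limit over the whole range of levels.

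The members were of 2 kinds when the 3 control stigma libraries were compared with each other, a split made after the values were seen. In 68 members, called even here, the 3 libraries lay within 4-fold of each other on FPKM + 1. In the other 28, called uneven, they did not, and 24 of these were listed at 0 in at least 1 control stigma library and 18 in 2 of the 3. An uneven member took a median of 100% of its summed control stigma FPKM from 1 library, against 37.8% for the even members.

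The uneven members supplied the highest ratios. All 6 members with a ratio of 20 or more and 12 of the 18 with a ratio of 10 or more were uneven, and the highest ratio among even members was 19.1, that of GLYMA_02G268000. GLYMA_07G181100 had the highest ratio of all members and was chosen as an example after its values were seen. It stood at 178 FPKM in control replicate 2 and was listed at 0 in the other 2 controls and in all 9 stressed stigma libraries. Of the uneven members, 15 were listed at 0 in every stressed stigma library, and 20 were listed at 0 in every control library of the ovary, sepal and anther.

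GLYMA_20G022700, chosen in the same way, stood at 2.56, 678 and 3.01 FPKM in combined-stress stigmas, at 2.65, 2.14 and 2.29 FPKM in heated stigmas, at 3.38, 2.77 and 2.76 FPKM under water deficit and at 2.44, 269.7 and 3.40 FPKM in controls. Its high stigma values were those of 1 combined-stress and 1 control library. In water-deficit sepals its mean was 109 FPKM, against 1.12 FPKM in control sepals, and it was not called there (limma adjusted p = 0.549). The lowest value above 0 that an uneven member reached in any of the 48 libraries had a median of 7.67 FPKM, against 0.0873 FPKM for the even members. A listed 0 beside such values can be a failed estimate, so no fold is given against it. The results are therefore given for all members and for the even ones.

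Among the even members the median control stigma mean was 29.1 FPKM and the median ratio 5.55. Their next organ was the ovary for 44, the sepal for 13 and the anther for 11. The highest was GLYMA_15G239600, at 588, 602 and 834 FPKM in combined-stress stigmas, 552, 502 and 528 FPKM in heated stigmas, 1028, 511 and 836 FPKM under water deficit, and 1134, 786 and 1104 FPKM in controls. All heated libraries lay below all controls, and under combined stress and water deficit the libraries overlapped with the controls. GLYMA_15G239700, the next highest, stood at 369, 379 and 489.9 FPKM under combined stress, 389, 337 and 332 FPKM under heat, 739, 379 and 577 FPKM under water deficit, and 874, 548 and 956 FPKM in controls. In this gene the combined-stress libraries too lay below every control.

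The other members among the 10 with the highest control stigma mean were GLYMA_19G250100, GLYMA_15G239200, GLYMA_02G141900, GLYMA_02G268000, GLYMA_08G211600, GLYMA_13G069900, GLYMA_20G164700 and GLYMA_13G258100, with control means between 141 and 396 FPKM. GLYMA_13G069900 alone of the 10 was called higher under combined stress, and GLYMA_15G239700 alone was called lower there, a call lost when control replicate 1 or 3 or combined-stress replicate 1 or 2 was left out (limma adjusted p between 0.0682 and 0.0743). In heat, GLYMA_15G239600, GLYMA_15G239700 and GLYMA_20G164700 were called lower, and none of the 10 was called higher. All 10 were even members.

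The organ bias itself was examined in the stressed libraries, which the rule did not use. A loss of the bias is favoured by the choice, since members were picked for passing the limit in control libraries. Of the members, 27 had a control ratio under 5. The rule, applied to the 3 libraries of each organ under 1 stress, was met by 45 members under combined stress, 45 under heat and 50 under water deficit. Nearly all of these were even members, with 44 of 68 under combined stress, 45 of 68 under heat and 48 of 68 under water deficit. Of the 28 uneven members, 1 met it under combined stress, 0 under heat and 2 under water deficit. The stigma was still the organ with the highest mean for 67 of the 68 even members under combined stress, and for all 68 under heat and under water deficit. All 4 treatments met the rule for 34 members, all of them even, among them GLYMA_15G239600, GLYMA_02G141900, GLYMA_02G268000, GLYMA_08G211600, GLYMA_13G069900 and GLYMA_13G258100 of the 10 highest.

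Over all identifiers, 99 genes met the rule in combined-stress libraries, 85 in heated, 93 in water-deficit and 96 in control libraries. The number of genes with a stigma bias of this size thus lay between 85 and 99, while the membership changed. The members made up 45.5% of those found under combined stress, 52.9% under heat and 53.8% under water deficit. For GLYMA_02G268000 the ratio of the stigma to the next organ was 8.60 under combined stress, 13.3 under heat, 21.6 under water deficit and 19.1 in controls, and for GLYMA_13G069900 it was 11.2 under combined stress, 5.04 under heat, 6.48 under water deficit and 5.79 in controls.

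As a share of all FPKM in the stigma, the 68 even members held 0.766%, 0.736% and 0.856% in combined-stress libraries and 0.619%, 0.581% and 0.649% in heated ones. They held 1.04%, 0.546% and 0.840% under water deficit and 0.944%, 0.780% and 0.963% in controls. The 3 heated libraries were below all combined-stress and control libraries, and 1 water-deficit library, replicate 2, was lower still. The means were 0.786% ± 0.0626 under combined stress, 0.616% ± 0.0342 under heat, 0.808% ± 0.248 under water deficit and 0.896% ± 0.101 in controls (SD, n = 3 each). The labels do not say whether the pools of a group came from separate plantings, so the spread and the p-values cover only these pools.

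Genes of the ovary were followed in the same stigma libraries. Of the 75 ovary-enriched genes found by the same rule, 38 had even control ovary libraries, and in the stigma these held 0.00945%, 0.00955% and 0.00695% of FPKM under combined stress and 0.0569%, 0.0182% and 0.0379% under heat. They held 0.00755%, 0.0422% and 0.00913% under water deficit and 0.00695%, 0.00693% and 0.0188% in controls. The high value under water deficit was that of replicate 2, the library in which the even members held their lowest share. All 75 ovary-enriched genes, the unevenly listed ones included, held 0.0250%, 0.0250% and 0.0363% of stigma FPKM under combined stress, 0.0625%, 0.0347% and 0.0441% under heat, 0.00933%, 0.0505% and 0.0279% under water deficit, and 0.0112%, 0.00693% and 0.0188% in controls. Over the 75 genes every combined-stress and every heated stigma lay above every control. Over the 38 genes the combined-stress stigmas overlapped with the controls. The rule required these genes to be low in control stigmas, so a higher share in stressed stigmas is favoured by the choice. In the heated stigmas 2 to 5 of the 38 genes were listed at 0, in combined-stress stigmas 12 to 14, under water deficit 18, 0 and 6, and in controls 9 to 13.

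In the ovary itself the 75 genes held 0.163% ± 0.0125 of FPKM under combined stress, 0.185% ± 0.0212 under heat, 0.134% ± 0.0278 under water deficit and 0.227% ± 0.0127 in controls (SD, n = 3 each), and a lower share under stress is favoured by the choice of these genes on control ovaries. Anther-enriched genes held 1.01% to 1.89% of stigma FPKM under combined stress, 1.39% to 2.70% under heat, 3.45% to 4.71% under water deficit and 2.34% to 5.39% in controls. Sepal-enriched genes held 1.32% to 1.56% over all stigma libraries. The part of RNA from other organs in the results below was not tested. In bulk organs, fewer cells of a type and less RNA per cell cannot be told apart.

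**Figure D2:**
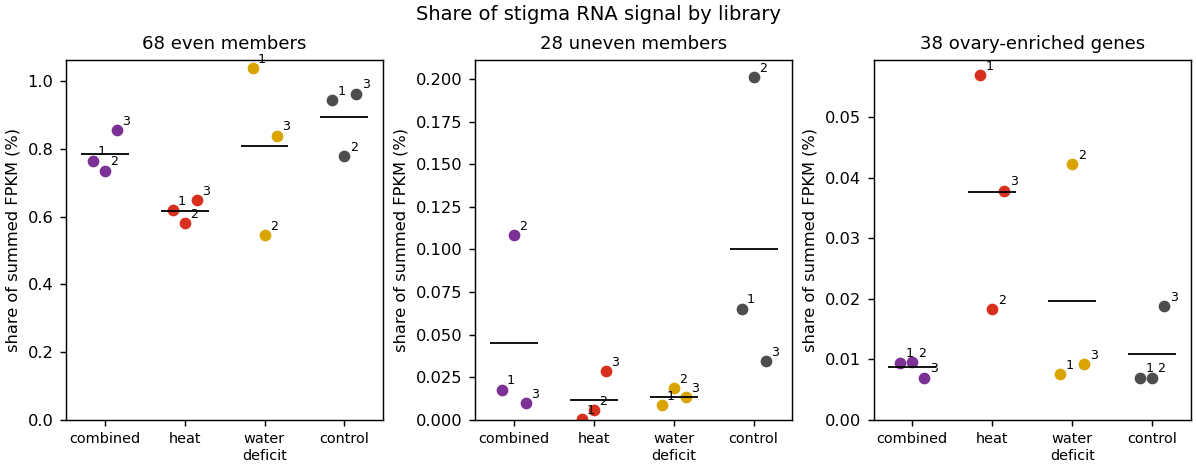
Share of summed FPKM (%) in each stigma library held by the 68 even members, the 28 uneven members and 38 ovary-enriched genes with even control ovary libraries, with points numbered by replicate and a line at the mean of 3. Heated stigmas and replicate 2 of water deficit hold the lowest shares of the even members. Heat replicates 1 and 3 and water-deficit replicate 2 hold the highest shares of the ovary-enriched genes, heat replicate 2 (0.0182%) is just below control replicate 3 (0.0188%), and 1 control and 1 combined-stress library stand out among the uneven members.

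Responses within the stigma were tested with limma on log2(FPKM + 1) over 33609 genes, and a gene was called higher or lower at a Benjamini-Hochberg adjusted p under 0.05. A log2 fold change is the difference of mean log2(FPKM + 1), which understates the change of low genes. All 96 members were among the genes tested, each of them through its control mean of at least 5 FPKM. Because they were picked for high control stigma values, a fall against control is favoured by the choice itself. Fold changes between stressed groups do not use the control libraries, and these comparisons are given first. Their p-values and calls do depend on the control libraries, because all stigma libraries share an estimate of the spread.

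Combined stress against heat asks what low water adds to heat. The members stood mostly higher under combined stress than under heat, by a small amount. The median log2 difference was 0.27 over the even members and 0.15 over all members, beside -0.03 over all genes tested, and it was above 0 in 56 of the 68 even members. The 3 combined-stress libraries lay above the 3 heated ones in 22 members, or 22.9%, against 8.71% of all genes tested, and below them in 4 members, or 4.17%, against 12% of all genes. Only 1 member was called higher and 0 lower, while 0.434% and 0.696% of all genes were called.

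The called member was GLYMA_15G155100. It stood at 10.8, 10.9 and 11.2 FPKM in combined-stress stigmas against 4.66, 3.76 and 5.37 FPKM in heated stigmas (log2 fold change 1.11 with an SE of 0.200, limma adjusted p = 0.0242). It had 17.3, 8.50 and 13.3 FPKM under water deficit and 10.1, 9.74 and 12.4 FPKM in controls. The heated libraries were the lowest 3 of the 12, and the combined-stress libraries lay among the controls. The call was lost without any 1 of the 6 heated or combined-stress libraries, with 0 members called, and 2 members were called higher without control replicate 2 or without water-deficit replicate 1. Without water-deficit replicate 2, the library with the low share, 9 members were called higher in this comparison.

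The 38 evenly listed ovary-enriched genes were lower in every combined-stress stigma than in every heated one, while over all 75 the groups overlapped, with 0.0363% in combined-stress replicate 3 and 0.0347% in heat replicate 2. Members above 0 in this comparison numbered 62 and those below 0 numbered 17 among all 96, since many uneven members were listed at 0 in both groups. GLYMA_20G164700 was at 149, 222 and 154 FPKM under combined stress and 131, 101 and 109 FPKM under heat (log2 fold change 0.60 with an SE of 0.172, limma adjusted p = 0.127). GLYMA_20G168500, chosen after its values were seen, was at 21.3, 25.6 and 21.8 FPKM under combined stress and 16.7, 14.0 and 15.1 FPKM under heat (log2 fold change 0.55 with an SE of 0.121, limma adjusted p = 0.0518). In both genes the groups did not overlap and the difference did not pass the threshold.

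Heat against water deficit set the 2 single stresses side by side. Of the members, 1 was called higher, or 1.04%, and 9 lower, or 9.38%, while 3.28% of all genes were called higher and 4.96% lower. All 10 were even members, and the median log2 difference was -0.21 over the even members and -0.10 over all members, beside -0.02 over all genes. Without water-deficit replicate 2, 23 members were called lower, and the member called higher was no longer called.

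GLYMA_06G093600 differed most. It stood at 4.71, 6.79 and 5.87 FPKM in heated stigmas against 31.0, 29.6 and 26.3 FPKM under water deficit (log2 fold change -2.15 with an SE of 0.293, limma adjusted p = 0.00383). GLYMA_20G023200 stood at 2.61, 3.91 and 7.42 FPKM in heated stigmas against 22.6, 11.1 and 15.8 FPKM under water deficit (log2 fold change -1.67 with an SE of 0.378, limma adjusted p = 0.0273). The call of GLYMA_20G023200 was lost when water-deficit replicate 1 or 3 or heat replicate 1 or 2 was left out (limma adjusted p between 0.0750 and 0.0958). In each gene every heated library was below every water-deficit library, and in GLYMA_06G093600 water-deficit replicate 2 was as high as the others.

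The member higher in heat was GLYMA_06G232400, at 8.51, 6.76 and 6.98 FPKM in heated stigmas against 6.02, 2.40 and 3.64 FPKM under water deficit (log2 fold change 0.80 with an SE of 0.214, limma adjusted p = 0.0409). The lowest of these values was that of water-deficit replicate 2. The call was lost without that library (log2 fold change 0.55), and also without any 1 of the heated libraries, water-deficit replicate 3, control replicate 2, or combined-stress replicate 1 or 3.

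Against water deficit, combined stress asks what heat adds to low water. Of the members, 4 were called higher, or 4.17%, and 8 lower, or 8.33%, while 5.44% of all genes were called higher and 11.2% lower. The shares of members called were thus near those of all genes. The counts moved with single libraries. Members called higher numbered 8 without water-deficit replicate 1, 2 without water-deficit replicate 2, and 0 without combined-stress replicate 2 or 3. Members called lower numbered 4 without water-deficit replicate 1 or 3, 13 without water-deficit replicate 2, and 5 without combined-stress replicate 1 or 2.

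GLYMA_06G093600 was at 10.5, 4.01 and 5.33 FPKM in combined-stress stigmas against 31.0, 29.6 and 26.3 FPKM under water deficit (log2 fold change -2.06 with an SE of 0.293, limma adjusted p = 0.00179). GLYMA_09G032200 was at 5.46, 6.08 and 5.03 FPKM in combined-stress stigmas against 33.8, 12.4 and 28.8 FPKM under water deficit (log2 fold change -1.88 with an SE of 0.289, limma adjusted p = 0.00246). Neither pair of groups overlapped.

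GLYMA_13G113700 was higher, at 10.4, 13.3 and 13.9 FPKM under combined stress against 8.05, 2.50 and 7.17 FPKM under water deficit (log2 fold change 1.08 with an SE of 0.299, limma adjusted p = 0.0309). GLYMA_13G150700 was also higher, at 48.3, 46.7 and 54.4 FPKM under combined stress against 41.4, 19.7 and 27.0 FPKM under water deficit (log2 fold change 0.80 with an SE of 0.203, limma adjusted p = 0.0196). In both, water-deficit replicate 2 was the lowest library. Without it the log2 fold changes were 0.65 and 0.56. Both calls were lost when combined-stress replicate 2 or 3 was left out, and that of GLYMA_13G150700 also without water-deficit replicate 3 (limma adjusted p between 0.0501 and 0.0975).

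**Figure D3:**
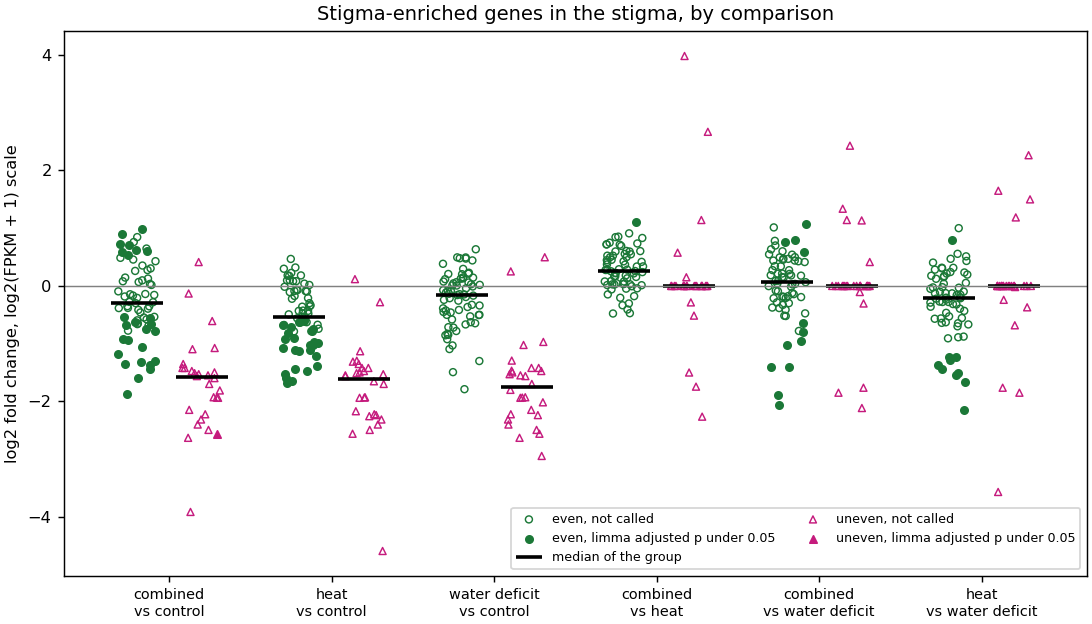
Log2 fold change in the stigma, on the log2(FPKM + 1) scale, of the 68 even (green circles) and 28 uneven (magenta triangles) members in 6 comparisons, filled where the limma adjusted p was under 0.05, with a bar at the median of each kind. The even members are shifted down in heat against control (median -0.54) and up in combined stress against heat (median 0.27), and the uneven members lie below 0 against control in nearly every case.

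Heat against control asks what high temperature alone does. Of the 96 members, 25 fell, or 26.0%, and 0 rose, while 7.16% of all genes tested were lower and 6.77% higher. All 25 were even members. The median log2 fold change was -0.54 over the even members and -0.76 over all members, beside 0.01 over all genes. The heated libraries lay below all controls in 38 members, or 39.6%, against 16.9% of all genes, and above them in 1 member, or 1.04%, against 18.3%. The count of 25 was 10 without control replicate 1, 14 without control replicate 2, 16 without control replicate 3, and 11, 13 and 14 without heat replicates 1, 2 and 3.

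Since the control libraries chose the members, the same comparison was made for the 93 genes that met the rule in water-deficit libraries, of which 50 were members. Of these 93, 17 fell in heat against control, or 18.3%, and 2 rose, or 2.15%, and their median log2 fold change was -0.17. The stigma libraries that chose this list took no part in these fold changes, but they entered the shared estimate of the spread. The share of lower genes was above that of all genes in each list, and it was smaller in the list chosen without control libraries. All 75 ovary-enriched genes together were higher in every heated stigma (0.0347% to 0.0625%) than in every control (0.00693% to 0.0188%). The 38 evenly listed ones were higher in 2 of the 3 heated stigmas, and the other, at 0.0182%, was just below the highest control, at 0.0188%. Low control stigma values were required of these ovary-enriched genes, which favours a rise.

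GLYMA_06G093600 fell most among the named genes, to 4.71, 6.79 and 5.87 FPKM in heated stigmas, against 22.3, 27.2 and 14.2 FPKM in controls (log2 fold change -1.68 with an SE of 0.293, limma adjusted p = 0.00595). GLYMA_13G230000 fell to 0.961, 1.86 and 2.66 FPKM in heated stigmas, against 5.47, 11.3 and 7.01 FPKM in controls (log2 fold change -1.65 with an SE of 0.375, limma adjusted p = 0.0171). Heated and control libraries did not overlap in either gene. The call of GLYMA_13G230000 was lost when control replicate 2 (limma adjusted p = 0.0570) or heat replicate 1 (0.0653) was left out.

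GLYMA_20G168500 fell to 16.7, 14.0 and 15.1 FPKM in heated stigmas, against 32.4, 39.5 and 31.3 FPKM in controls, with the lowest adjusted p of the members in this comparison (log2 fold change -1.12 with an SE of 0.121, limma adjusted p = 0.000629). GLYMA_20G164700 fell to 131, 101 and 109 FPKM in heated stigmas, against 206, 176 and 189 FPKM in controls (log2 fold change -0.74 with an SE of 0.172, limma adjusted p = 0.0167), a call lost when control replicate 1 or heat replicate 2 or 3 was left out (limma adjusted p between 0.0525 and 0.0624). Both stood higher under water deficit than in any control, at 48.5, 40.0 and 46.7 FPKM for GLYMA_20G168500 and at 311, 216 and 285 FPKM for GLYMA_20G164700. Those differences did not pass the threshold (limma adjusted p = 0.341 and 0.413), and the high values include water-deficit replicate 2.

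Among the most abundant members, GLYMA_15G239600 had a log2 fold change of -0.91 in heat (standard error 0.237, limma adjusted p = 0.0280) and GLYMA_15G239700 one of -1.13 (standard error 0.251, limma adjusted p = 0.0157). The call of GLYMA_15G239600 was lost when control replicate 1 or 3 or any heated library was left out (limma adjusted p between 0.0682 and 0.0905), and that of GLYMA_15G239700 when control replicate 1 (0.0544) or heat replicate 3 (0.0502) was. GLYMA_17G110400, at the limit of the rule, stood at 1.37, 0.529 and 0.545 FPKM in heated stigmas and 3.02, 2.62 and 9.69 FPKM in controls (log2 fold change -1.60 with an SE of 0.476, limma adjusted p = 0.0494). Its control mean reached the limit through replicate 3, and its call was lost in 13 of 19 alternatives, among them leaving out any control or any heated library. GLYMA_08G211600 was at 239, 202 and 246 FPKM in heated stigmas and 258, 256 and 219 FPKM in controls, with overlapping groups (log2 fold change -0.10 with an SE of 0.181, limma adjusted p = 0.761).

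**Figure D4:**
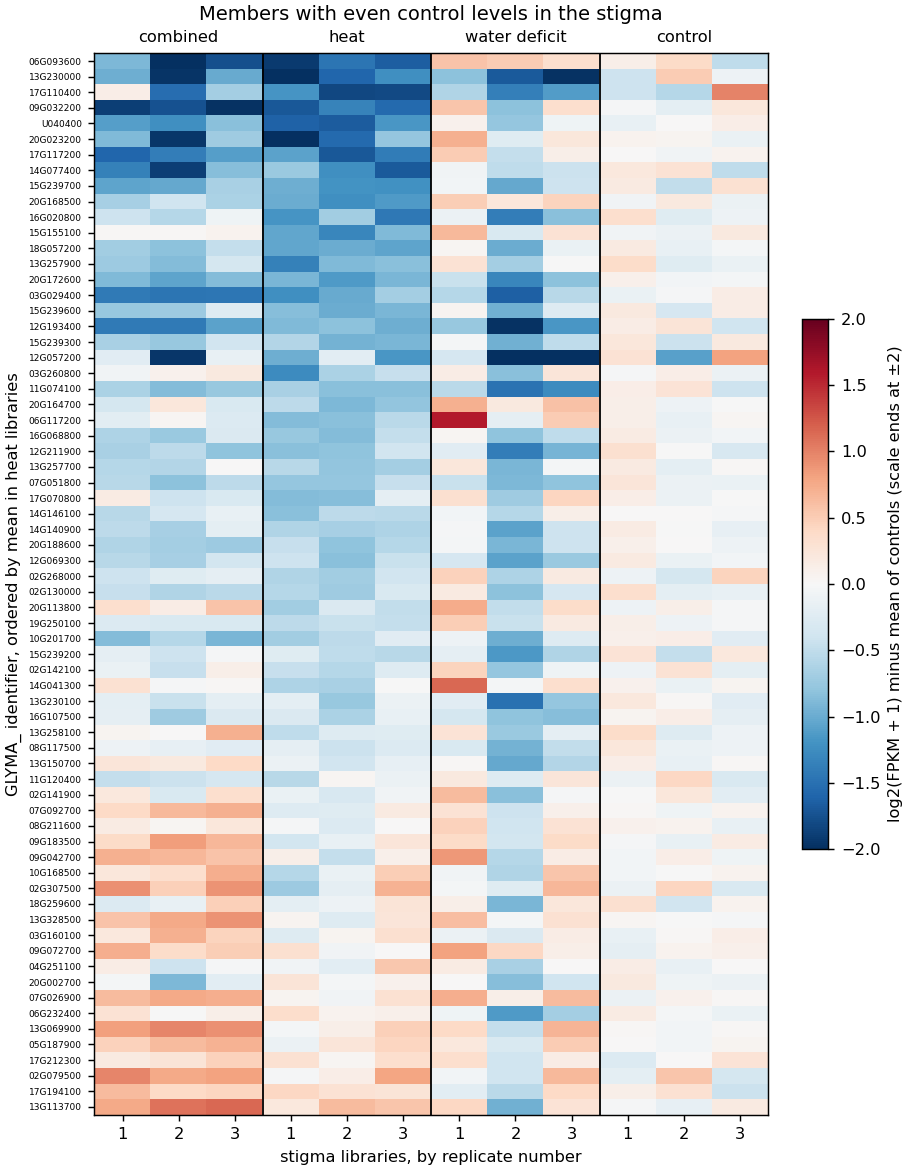
Log2(FPKM + 1) minus the mean of the 3 controls for each of the 68 even members (rows, ordered by their mean in heated libraries) in the 12 stigma libraries (columns, grouped by treatment and numbered by replicate), with blue below and red above the control mean and the scale ending at ±2. Heated libraries are blue in most rows, combined-stress libraries are blue at the top and red at the bottom, and replicate 2 of water deficit is blue in most rows while replicates 1 and 3 are mixed.

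For combined stress against control, members were called in both directions, and a fall is favoured by the choice of members on controls. Of the members, 8 rose, or 8.33%, and 19 fell, or 19.8%, while 11.1% of all genes tested were higher and 14.9% lower. The share of members higher was thus below that of all genes, and the share lower was above it. The median log2 fold change was -0.29 over the even members and -0.57 over all members, beside -0.01 over all genes. Of the 27 called, 26 were even. The other was GLYMA_04G207100, named because it was the only uneven member called in this comparison. It was listed at 0 in all combined-stress stigmas and at 0, 12.4 and 14.3 FPKM in controls (limma adjusted p = 0.0421), so the groups overlapped, and its call was lost in 14 of 19 alternatives, among them leaving out any combined-stress library.

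In the 93 genes chosen on water-deficit libraries, 12 rose, or 12.9%, and 10 fell, or 10.8%. Those shares were near the background in both directions. The counts for members moved with single libraries. The count of 8 higher was 3 without control replicate 1, control replicate 2 or combined-stress replicate 3, 5 without control replicate 3, and 2 without combined-stress replicate 2. The count of 19 lower was 11 without control replicate 1 or combined-stress replicate 2 and 12 without combined-stress replicate 1.

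GLYMA_09G032200 fell to 5.46, 6.08 and 5.03 FPKM in combined-stress stigmas, against 22.3, 19.6 and 26.8 FPKM in controls (log2 fold change -1.87 with an SE of 0.289, limma adjusted p = 0.00128). GLYMA_06G093600 fell to 10.5, 4.01 and 5.33 FPKM in combined-stress stigmas, against 22.3, 27.2 and 14.2 FPKM in controls (log2 fold change -1.59 with an SE of 0.293, limma adjusted p = 0.00329). In both genes the heated libraries too lay below every control. In GLYMA_09G032200 they stood at 6.29, 8.39 and 7.08 FPKM, each a little above the combined-stress libraries. The water-deficit libraries overlapped with the controls in both.

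GLYMA_13G069900, 1 of the 10 most abundant members, rose to 416, 461 and 442 FPKM in combined-stress stigmas, against 239, 225 and 239 FPKM in controls (log2 fold change 0.90 with an SE of 0.236, limma adjusted p = 0.0170). It stood at 227, 254 and 325 FPKM under heat and 308, 169 and 377 FPKM under water deficit, and the 3 combined-stress libraries were the highest of the 12. GLYMA_13G113700 rose to 10.4, 13.3 and 13.9 FPKM in combined-stress stigmas, against 5.68, 5.04 and 6.71 FPKM in controls (log2 fold change 0.99 with an SE of 0.299, limma adjusted p = 0.0315). Its heated libraries lay between, at 6.87, 9.56 and 8.90 FPKM. The call of GLYMA_13G069900 was lost when control replicate 2 (limma adjusted p = 0.0548) or combined-stress replicate 2 (0.0587) was left out, and that of GLYMA_13G113700 when control replicate 1 or 2 or combined-stress replicate 2 or 3 was (between 0.0761 and 0.0941).

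**Figure D5:**
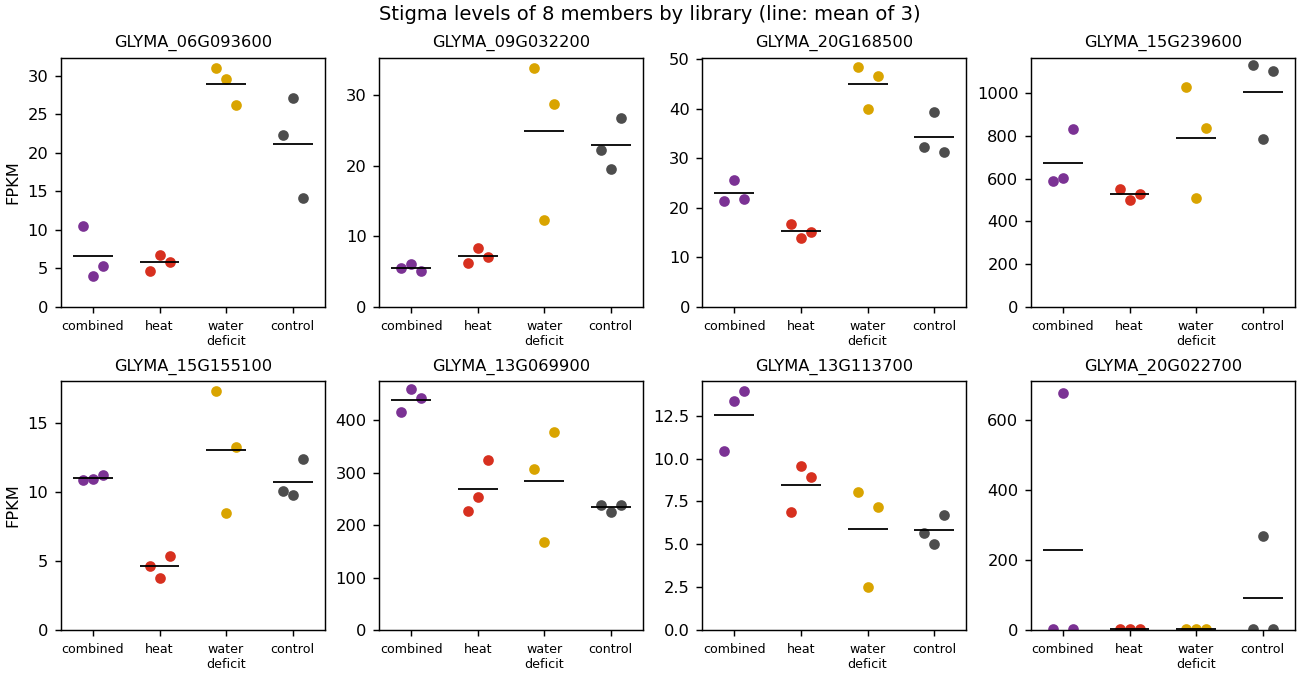
FPKM in each of the 12 stigma libraries for 8 members, grouped by treatment with a line at the mean of 3, each panel with its own scale from 0. GLYMA_06G093600, GLYMA_09G032200 and GLYMA_20G168500 are low under heat and combined stress, GLYMA_15G155100 is low under heat, GLYMA_13G069900 and GLYMA_13G113700 are highest under combined stress, and GLYMA_20G022700 is high in 1 combined-stress and 1 control library.

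Water deficit alone called no member. With limma's adjusted p, 0 members rose and 0 fell, while 0.0565% of all genes were higher and 0.107% lower. An unadjusted limma p under 0.05 was held by 23 of the 96 members, beside 2869 of all 33609 genes. A fall is favoured here by the choice of members on controls. The median log2 fold change was -0.15 over the even members. By library, the median of the even members relative to the control mean was 0.10, -0.77 and -0.00 in water-deficit replicates 1, 2 and 3, so replicate 2 stood apart. The median of genes at 5 FPKM or more was 0.01, 0.05 and 0.01 in the same libraries. In the heated libraries the even members' median was -0.58, -0.65 and -0.41, and in the combined-stress libraries it was -0.22, -0.41 and -0.20. Without water-deficit replicate 1, 3 members were called lower, and 1 was called lower without control replicate 1.

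Whether the effect of both stresses differed from the sum of each alone was tested as an interaction. No member was called (0 of 96, and 0 of all 33609 genes), and 21 members had an unadjusted p under 0.05, beside 2183 of all genes. The estimate was above 0 in 61 of 68 even members, with a median of 0.52, but the control libraries that chose the members enter it with a positive sign. In the 93 genes chosen on water-deficit libraries, the median was 0.11, but there the water-deficit libraries that chose them enter with a negative sign, so neither list is independent of the interaction. Leaving out control replicate 1 gave 1 member called.

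The same members were followed in the other organs, where the rule required low control values and a rise is favoured by the choice. A member could be tested there if it reached a mean of 1 FPKM in at least 1 treatment, which held for 69 of 96 in the ovary, 47 in the sepal and 48 in the anther. A member low in controls could pass through a stressed group in which it was high, which also favours a rise. Genes named in these organs were chosen after their values were seen, apart from the 5 called in heated anthers, which are all given.

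In the ovary, under combined stress 1 member rose and 9 fell, while 11% of all genes tested were higher and 16.5% lower. Under heat 2 rose and 5 fell, beside 5.99% and 10.8% of all genes. The members called in either direction numbered 5 under combined stress without control replicate 1 and 6 without combined-stress replicate 2, and under heat 3 without control replicate 1 and 11 without combined-stress replicate 3 or water-deficit replicate 1. GLYMA_20G172600 fell to 1.12, 1.34 and 2.50 FPKM in combined-stress ovaries, against 13.4, 8.32 and 15.6 FPKM in control ovaries (log2 fold change -2.34 with an SE of 0.339, limma adjusted p = 0.000615). GLYMA_06G093600 was low in the ovary and fell there as well, to 0.028, 0.207 and 0.0978 FPKM in heated ovaries, against 1.50, 1.81 and 1.22 FPKM in control ovaries (log2 fold change -1.17 with an SE of 0.227, limma adjusted p = 0.00506).

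GLYMA_09G032200 behaved otherwise. In the ovary it stood at 7.23, 5.12 and 4.29 FPKM under combined stress, 6.77, 6.92 and 7.24 FPKM under heat and 4.14, 6.16 and 4.62 FPKM in controls. Its combined-stress and control ovary libraries overlapped, whereas in the stigma they did not. Its response to combined stress in the stigma minus that in the ovary was -1.99 on the log2 scale (standard error 0.342, limma adjusted p = 0.0165), and it was the only member called in that test, in which 0.145% of all genes were called. The control stigma and ovary libraries that chose the members enter this difference, and a negative value is favoured by the choice. For heat the same difference was -1.96 (standard error 0.342, limma adjusted p = 0.0502), and 0 members were called, beside 0.00853% of all genes. At an unadjusted p under 0.05 stood 15 of 96 members, beside 2751 of all 35167 genes. The call under combined stress was lost, with 0 members called, without ovary control replicate 1 or 3 or stigma combined-stress replicate 1 or 3. Without stigma control replicate 1 or stigma water-deficit replicate 2, 2 members were called. Under heat 2 members were called without stigma water-deficit replicate 1, and 1 without stigma control replicate 2 or stigma water-deficit replicate 2 or 3.

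In the sepal, under combined stress 2 members rose and 11 fell, while 7.19% of all genes tested were higher and 16.9% lower. Under heat 2 rose and 7 fell, beside 4.11% and 7.19% of all genes. Without combined-stress replicate 2, 8 were called under combined stress. GLYMA_03G160100 rose to 5.58, 4.07 and 4.35 FPKM in combined-stress sepals, against 0.218, 0.0305 and 0.261 FPKM in control sepals (log2 fold change 2.27 with an SE of 0.244, limma adjusted p = 8.49e-05). GLYMA_20G113800 rose to 3.79, 5.32 and 6.33 FPKM in heated sepals, against 1.12, 1.13 and 1.07 FPKM in control sepals (log2 fold change 1.52 with an SE of 0.205, limma adjusted p = 0.00111). The stressed and control libraries did not overlap in either. GLYMA_03G160100 passed the filter of 1 FPKM in the sepal only through its heat (1.59 FPKM) and combined-stress (4.67 FPKM) means.

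In the anther, where 51.8% of all genes tested were higher and 10.7% lower under combined stress, 4 members rose and 2 fell. In heated anthers 3 rose and 2 fell, beside 14.5% and 3.96% of all genes. Leaving out control replicate 1 gave 3 calls and leaving out control replicate 2 gave 2 under combined stress, and leaving out any 1 control gave 3 under heat. GLYMA_04G251100 rose to 2.11, 1.60 and 4.56 FPKM in heated anthers, against 0.113, 0.199 and 0.289 FPKM in control anthers (limma adjusted p = 0.0131). GLYMA_15G239300 rose to 2.24, 3.21 and 4.84 FPKM, against 0.130, 0.863 and 0.914 FPKM in control anthers (limma adjusted p = 0.00783). All heated libraries were above all controls in both genes, and the call of GLYMA_04G251100 was lost without control replicate 1 (limma adjusted p = 0.0509). In control anthers both had means under the filter of 1 FPKM (0.200 FPKM for GLYMA_04G251100 and 0.636 FPKM for GLYMA_15G239300). Both could be tested only through stressed groups, which favours a rise. GLYMA_04G251100 passed only through its heat (2.75 FPKM) and combined-stress (3.27 FPKM) means.

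GLYMA_04G210800, an uneven member, was called higher in heated anthers with values of 0, 7.28 and 4.45 FPKM, against 0 in all control anthers (limma adjusted p = 0.0476). The groups overlapped at 0, and the call was lost in 15 of 18 alternatives, among them leaving out any control. GLYMA_04G210800 passed the filter of 1 FPKM in the anther only through its heat mean (3.91 FPKM), which favours a rise. GLYMA_05G187900 fell to 0.600, 0.504 and 0.902 FPKM in heated anthers, against 3.14, 4.02 and 3.51 FPKM in control anthers (limma adjusted p = 0.0233), a call lost when any control or heat replicate 1 was left out (limma adjusted p between 0.0597 and 0.0724). GLYMA_12G193400 fell to 0.165, 0.389 and 0.237 FPKM in heated anthers, against 1.60, 1.61 and 2.04 FPKM in control anthers (limma adjusted p = 0.00841). Under water deficit 0 members were called in any of these organs, while of all genes 0.234% were called in the ovary, 0.208% in the sepal and 0.00351% in the anther. At an unadjusted p under 0.05 stood 13 of 69 members tested in the ovary, beside 2625 of all 33336 genes. In the sepal it was 6 of 47 members, beside 4183 of 33179 genes. In the anther it was 2 of 48 members, beside 561 of 28529 genes. Without sepal control replicate 1, 1 member was called there under water deficit.

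The order of identifiers along the chromosomes brought some members together. Counting members whose numbers lay within 5 identifiers of each other, 15 members fell into 6 groups, and 12 of the 15 were even. The largest group held GLYMA_15G239200, GLYMA_15G239300, GLYMA_15G239600 and GLYMA_15G239700, with control stigma means of 358, 123, 1008 and 793 FPKM. Between them lay GLYMA_15G239500, which had 328 FPKM in the stigma but was also high in the sepal (158 FPKM) and did not meet the rule, with a ratio of 2.07. Whether reads shared among alike copies add to the likeness of neighbours was not tested.

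In the stigma, 3 of the 4 genes of this group fell in heat, with log2 fold changes of -0.82 for GLYMA_15G239300, -0.91 for GLYMA_15G239600 and -1.13 for GLYMA_15G239700, while GLYMA_15G239200 did not pass the threshold (log2 fold change -0.43, limma adjusted p = 0.265). The call of GLYMA_15G239300 was lost in 10 of 19 alternatives, among them leaving out any heated library. In the sepal all 4 fell under heat and under combined stress, but the calls of GLYMA_15G239200 were lost without heat replicate 1 or 3 and without combined-stress replicate 2 or 3. GLYMA_15G239600 fell to 42.5, 58.4 and 48.6 FPKM in heated sepals, against 123, 127 and 121 FPKM in control sepals (log2 fold change -1.31 with an SE of 0.156, limma adjusted p = 0.000600). GLYMA_15G239700 fell in the sepal to 45.4, 59.2 and 47.9 FPKM in heated sepals, against 143, 247 and 141 FPKM in control sepals (log2 fold change -1.74 with an SE of 0.231, limma adjusted p = 0.00128). For GLYMA_15G239600 the ratio of the stigma to the next organ was 7.12 under heat against 6.43 in controls, and the next organ was the ovary in both, at 73.2 FPKM under heat and 156 FPKM in controls. For GLYMA_15G239700 the ratio was 5.73 under heat, with the ovary next at 60.8 FPKM, against 4.46 in controls, with the sepal next at 177 FPKM.

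Values of other neighbours are given side by side. GLYMA_13G230000 fell in heated stigmas, as given above, whereas its neighbour GLYMA_13G230100 stood at 26.1, 17.4 and 27.6 FPKM in heated stigmas and 35.1, 30.5 and 25.4 FPKM in controls (log2 fold change -0.36, limma adjusted p = 0.414), with overlapping groups. GLYMA_02G141900 stood at 248, 216 and 257 FPKM in heated stigmas and 269.7, 315 and 233 FPKM in controls, and its neighbour GLYMA_02G142100 at 92.2, 85.5 and 106 FPKM in heated stigmas and 119, 156 and 111 FPKM in controls. Neither of these was called. Of GLYMA_13G257700, GLYMA_13G257900 and GLYMA_13G258100, GLYMA_13G257900 alone was called lower in heat (log2 fold change -1.02 with an SE of 0.255, limma adjusted p = 0.0243), a call lost without control replicate 1 (0.0829) or heat replicate 1 (0.0873). The difference between neighbours was not tested.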

How the data were processed

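The authors deposited FPKM for each organ in a table of its own, from reads aligned with HISAT2 2.2.1 per the submitters' processing notes. Genome build, annotation and counting tool were not given in the sources used here. Read totals are unknown, so no counting interval is given. From the steps of low values, the deepest stigma library had 1.45 times the depth of the shallowest. Stigma libraries held 30514 to 31587 genes at 1 FPKM or more, and replicates correlated at 0.939 to 0.957.

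The 12 libraries of an organ were fitted together, apart from the other organs, on log2(FPKM + 1) with limma 3.58.1 (R 4.3.3), with trend and robust moderation and no replicate block, for genes with a group mean of at least 1 FPKM. Tests were two-sided, with Benjamini-Hochberg adjustment over all genes of a comparison and a threshold of 0.05. The stigma minus ovary test used 24 libraries and 35167 genes. The fit was run on simulated data with independent normal noise and changes only in genes at a level of 5 FPKM or more. Jumps between 0 and high values, as in the uneven members, were not simulated. Python 3.11.15, pandas 2.3.3, numpy 2.4.6 and, for figures, matplotlib 3.10.9 were used.

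Members, lists and rules were chosen with earlier results of these data known. Named are the 10 members with the highest control stigma mean, the 2 members and 2 genes nearest the limit, and per stigma comparison the 2 largest rises and 2 largest falls among called members with at least 5 FPKM in the higher group and no overlap, or every called member where 5 or fewer were called. Without gene names, 18 lists by product and the organ markers by name could not be built, and organ-enriched genes stood in for markers. Alternatives were other pseudocounts, filters, rescaling, the replicate block, moderation, member rules and leaving out each library.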

Additional observations from a re-analysis of the deposited data

Results flagged for a closer look

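GLYMA_09G032200 is listed here because its response to combined stress differed between the stigma and the ovary by a test of the difference itself. That test uses the control stigma and ovary libraries that chose the member, so a negative difference is favoured by the choice. The stigma response minus the ovary response was -1.9885 on the log2(FPKM + 1) scale (SE 0.342, limma adjusted p = 0.0165, 1 of 96 members called). In the stigma the 3 combined-stress libraries lay below all 3 controls, and in the ovary the groups overlapped. The gene was the member nearest the limit of the rule, with a ratio of 4.004, and the call was lost in the fit with a replicate block and without ovary control replicate 1 or 3 or stigma combined-stress replicate 1 or 3.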

How the results depend on the processing

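Without a library of the same organ, the counts of members ranged as follows. In the stigma, members higher numbered 2 to 9 and lower 11 to 26 for combined stress against control, 0 to 0 and 10 to 30 for heat against control, and 0 to 0 and 0 to 3 for water deficit against control. They numbered 0 to 9 and 0 to 0 for combined stress against heat, 0 to 8 and 4 to 13 for combined stress against water deficit, and 0 to 1 and 6 to 23 for heat against water deficit. The interaction called 0 to 1. Members called numbered 5 to 13, 3 to 11 and 0 to 0 in the ovary for combined stress, heat and water deficit against control, 8 to 17, 6 to 13 and 0 to 1 in the sepal, and 2 to 8, 3 to 5 and 0 to 0 in the anther. The stigma minus ovary difference called 0 to 2 members for combined stress and 0 to 2 for heat, leaving out 1 of 24 libraries.

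With 8-fold in the rule (31 genes), combined stress against control called 0 higher and 3 lower, heat against control 5 lower, combined stress against water deficit 0 higher and 1 lower, and heat against water deficit 0 higher and 2 lower. With members chosen on water-deficit libraries, combined stress against control called 10 lower, heat against control 2 higher, and heat against water deficit 0 higher, which that choice favours. Without the filter, combined stress against control called 5 higher and heat against water deficit 0 higher. Limma without trend and robust moderation also called 0 higher for heat against water deficit. Combined stress against heat called 2 higher with a pseudocount of 0.1 and 3 with a filter of 5 FPKM. In the anther that filter called 3 members for combined stress and 0 for heat, and median-of-ratios rescaling called 8 for heat. Causes were not tested, and the 8-fold rule left fewer genes that could be called. All other counts stayed within 1.5 times.

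Replicate numbers did not pair the stigma libraries of different treatments. Same-numbered stigma libraries correlated at -0.177 to 0.122, with 3 of 18 pairs over 0.1, and 4 of 12 libraries correlated best with their own number. Pairing of stigma and ovary libraries by number was not checked, and the replicate block was set within each organ. With a replicate block, combined stress against control called 9 higher and 22 lower, heat against control 0 and 25, and the stigma minus ovary difference for combined stress 0. Of 42 calls of named genes, 20 held in every alternative run (18 to 31 each), 10 were lost in 1 to 3 and 12 in 4 or more. GLYMA_02G141900, not called, was at -0.027 without control replicate 3 and -0.045 without combined-stress replicate 3, against 0.08 with all libraries, and at most 0.27 over the libraries left out. The unknown read depth limits what can be said of members near 0.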
